A study of Mus musculus with 10 samples.

Results

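Active intestinal stem cells from calorie-restricted mice were compared with the same cells from mice fed without limit. The cells were sorted by flow cytometry from C57Bl/6 mice that carry Lgr5-EGFP-IRES-CreER, an allele that places green fluorescent protein and a tamoxifen-dependent Cre recombinase under control of the stem cell gene Lgr5. The members are the 6 libraries of this reporter line among the 10 of the series, 3 from animals under calorie restriction (CR) and 3 from animals fed ad libitum (AL), each library from 1 animal. They were collected in 3 isolations, and each isolation held 1 AL and 1 CR animal, so the isolation number pairs the libraries. The remaining 4 libraries hold reserve stem cells marked by Hopx-CreER::LSL-tdTomato on the same strain, 2 AL and 2 CR from isolations 4 and 5. They enter the filter on low counts, the scaling between libraries and the estimate of spread, and they serve for a closing comparison. The reporter is known for patchy expression among crypts, it reports Lgr5 promoter activity rather than stem cell function, and the protein can persist in the first daughters of a stem cell. The age and sex of the mice, the degree and length of restriction and the sorting gate were not given in the sources used here.

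Lgr5 stem cells sit between the Paneth cells at the base of the crypt and divide continuously. Their daughters either become absorptive enterocytes, under Notch signalling, or enter the secretory lineages of Paneth, goblet, enteroendocrine and tuft cells. Calorie restriction lowers insulin and mTORC1 signalling in many tissues, shifts fuel use towards fatty acids and raises enzymes that process drugs and bile acids in the liver. The question addressed here is which transcripts differ between the diets within the Lgr5 population.

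The 6 libraries held 20.3 to 78.3 M estimated counts, and 15839 of the 30295 deposited gene rows passed the filter on low counts. Per length of transcript, the stem cell markers stood well above 0 in each library. Lgr5 was present at 18.4, 34.4 and 93.9 TPM (transcripts in 1e6 of the library) in AL replicates 1 to 3 and at 58.5, 35.3 and 69.0 in CR replicates 1 to 3. Olfm4, a secreted glycoprotein of crypt base cells, ran from 2023 to 7033 TPM, and Ascl2, a transcription factor of the Lgr5 program, from 76.3 to 334. The 5 most abundant transcripts were the Paneth cell defensins Defa24 (33729 to 86002 TPM) and Defa17, lysozyme, Lyz1 (8700.5 to 37895 TPM), the predicted gene Gm15284 and the mitochondrial gene mt-Co3. The 20 Paneth cell genes listed summed to 145400 to 200700 TPM in 5 libraries and to 76070 in AL replicate 3, a library in which the active stem cell list reached 10940 TPM against 3307 to 6046 elsewhere. The share of mitochondrially encoded RNA was 4.89% in CR replicate 1 and 1.72% to 2.63% in the others. Genes of stroma and endothelium summed to at most 5.88 TPM. Those of lymphocytes and myeloid cells summed to 482, 63.5 and 108 TPM in AL replicates 1 to 3 and 260, 106 and 197 in CR replicates 1 to 3, highest in AL replicate 1. These are bulk libraries, so fewer cells of a type and less RNA per cell cannot be told apart.

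Under calorie restriction 3 transcripts of the 15839 tested (0.0189%) rose by edgeR's quasi-likelihood test with a Benjamini-Hochberg adjusted p under 0.05. They encode a brush border protease, an enzyme of sulfate activation and a metal-binding protein. Levels are given as CPM, counts per 1e6 counts after scaling between libraries, and differences as log2 fold changes of CR over AL. Tmprss15, the enteropeptidase that activates pancreatic trypsinogen, measured 7.39, 6.20 and 4.71 CPM in the AL libraries and 48.0, 43.7 and 56.6 in the CR libraries of isolations 1, 2 and 3. It rose by 3.02 (SE 0.32, adjusted p = 0.0407). Papss2, the synthase of the activated sulfate that sulfotransferases consume, measured 208, 197 and 184 CPM under AL and 498, 703 and 706 under CR and rose by 1.69 (SE 0.20, adjusted p = 0.0416). Its paralog Papss1 was at 51.5 ± 5.0 CPM under AL and 46.3 ± 2.5 under CR (SD, n = 3 each), a log2 difference of -0.15 (SE 0.17). Mt2, of the metallothioneins that hold zinc and copper, measured 2.71, 4.95 and 4.96 CPM under AL and 37.2, 19.5 and 32.5 under CR and rose by 2.82 (SE 0.34, adjusted p = 0.0416). For each of these 3 genes every CR library lay above every AL library, and the lowest CR value was more than 2 times the highest AL value. The neighbouring family member Mt1 was at 78.7, 79.5 and 77.0 CPM under AL and 189, 127 and 136 under CR, without overlap. Its log2 difference of 0.94 (SE 0.17) had an adjusted p of 0.162 by the same test.

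With the isolation as a block, the log2 differences stayed at 3.03 for Tmprss15, 1.68 for Papss2 and 2.81 for Mt2, and the adjusted p-values became 0.121, 0.114 and 0.121. Leaving out any 1 of the Lgr5 libraries other than AL replicate 1 also removed the 3 calls, with log2 differences from 2.86 to 3.10 for Tmprss15, from 1.61 to 1.81 for Papss2 and from 2.60 to 3.05 for Mt2. Without AL replicate 1, 109 genes passed. That library was the highest in lymphocyte and myeloid RNA. Its listed enterocyte genes summed to 38390 TPM, against 12690 and 11680 in AL replicates 2 and 3. The part of either kind of RNA in the count was not tested. Papss2 and Mt2 also had an adjusted p of 0.051 with DESeq2 size factors in edgeR and of 0.0845 in a fit to the 6 Lgr5 libraries alone, where Tmprss15 had 0.0456 and 0.0111.

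Mt2 and Mt1 lie next to each other on chromosome 8, and their upstream sequences are shown because both transcripts stood apart between the diets. Metallothionein genes are known to be switched on through metal response elements, whose core was searched as TGCACNC and TGCGCNC on both strands. The windows are the 250 bases before the RefSeq transcription start (GRCm38.p6), at chr8:94172368-94172617 for Mt2 and chr8:94178839-94179088 for Mt1, both on the plus strand, and capitals mark the cores found.
Mt2: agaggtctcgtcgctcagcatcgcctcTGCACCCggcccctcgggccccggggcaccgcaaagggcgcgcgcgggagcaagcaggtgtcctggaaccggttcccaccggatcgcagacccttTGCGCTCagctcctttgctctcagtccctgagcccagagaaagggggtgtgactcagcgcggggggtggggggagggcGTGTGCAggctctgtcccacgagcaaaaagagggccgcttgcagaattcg
Mt1: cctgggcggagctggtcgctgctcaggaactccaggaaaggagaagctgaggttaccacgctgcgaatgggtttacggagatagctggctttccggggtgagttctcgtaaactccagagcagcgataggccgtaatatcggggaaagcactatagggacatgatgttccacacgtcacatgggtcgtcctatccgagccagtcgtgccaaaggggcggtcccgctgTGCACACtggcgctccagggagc
The Mt2 window held 3 cores, which began at positions -223, -128 and -50 counted from the start, the last of them on the minus strand. The Mt1 window held 1, at -23. Cores outside these 250 bases were not counted, so the numbers describe the windows and not the whole promoters. The annotated start sets where a window lies and was not checked, so 3 against 1 does not compare the promoters themselves. At least 1 core of either form was found in 21.4% of the 32851 RefSeq windows of this length and at least 3 in 1.26%. A match of letters describes the sequence and does not show that a factor binds it.

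Beyond the 3 called genes, many transcripts stood apart between the diets without passing the adjusted threshold. At an unadjusted p under 0.05, 882 genes were higher under CR (5.57% of those tested) and 667 were lower (4.21%). CPM values did not overlap in 1173 genes that were higher (7.41%) and 1186 that were lower (7.49%). The genes named next had the smallest p in each direction among those with at least 5 CPM, no overlap between the groups and an established symbol.

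Besides the 3 called, the 9 leading higher genes were Socs3, Abcb1a, Abcc2, Gstm1, Cyp4a10, Tha1, Gsdma, Akr1b8 and Tifa, with adjusted p-values from 0.0816 to 0.162. Socs3, the feedback inhibitor of cytokine receptors that signal through STAT3, was at 21.1, 11.6 and 8.94 CPM under AL and 78.5, 79.5 and 106 under CR. All 3 CR libraries lay well above the AL libraries, and the log2 difference was 2.66 (SE 0.35, adjusted p = 0.0816). Of the export pumps, Abcb1a (P-glycoprotein) was at 33.3, 30.3 and 26.9 CPM under AL and 411, 132 and 250 under CR, a difference of 3.13 (SE 0.47). Abcc2, which exports glutathione and glucuronide conjugates, was at 35.9, 24.5 and 29.6 under AL and 277, 107 and 157 under CR, a difference of 2.59 (SE 0.40). Gstm1, a glutathione transferase, was at 137, 142 and 86.5 CPM under AL and 748, 724 and 639 under CR (2.53, SE 0.39). Lack of overlap between the diets was a condition of choosing these pumps and the transferase. The CR libraries themselves spread by about 3-fold for Abcb1a and far less for Gstm1. Akr1b8, an aldo-keto reductase of reactive aldehydes, averaged 2.36 ± 0.86 CPM under AL and 43.2 ± 16 under CR (4.19, SE 0.70). Cyp4a10, which hydroxylates fatty acids at their far end, averaged 1.68 ± 0.71 and 22.1 ± 6.4 CPM (3.72, SE 0.58). Tha1, a threonine aldolase, differed by 1.27 (SE 0.20), Gsdma, of the pore-forming gasdermin family, by 2.51 (SE 0.42) and Tifa, an adaptor of innate immune signalling, by 1.13 (SE 0.19).

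**Figure D1:**
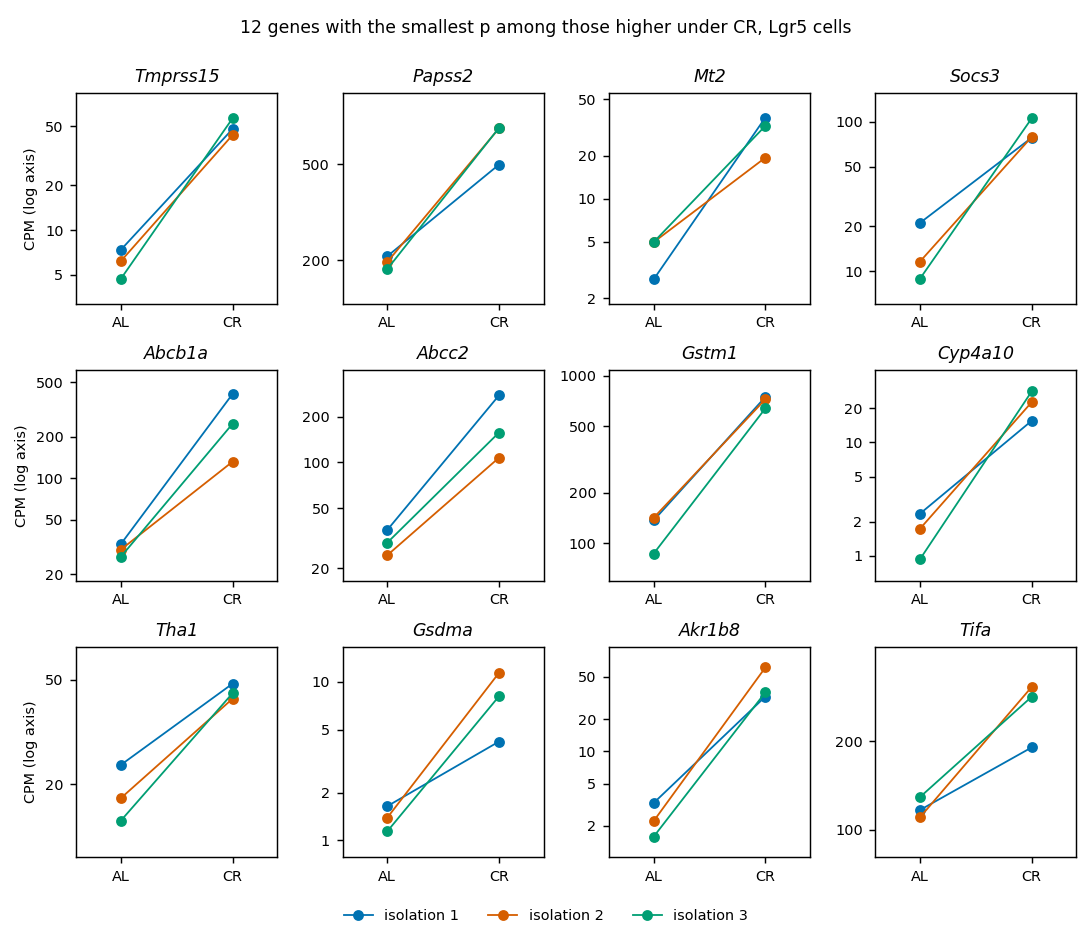
CPM (log axis) of the 12 genes with the smallest p among those higher under CR, in the Lgr5 libraries. Each line joins the AL and CR animal of 1 isolation, and the CR end lies above the AL end for each line, with Mt2 furthest apart in isolation 1 (3.76 on the log2 scale) and closest in isolation 2 (1.96).

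The export pumps and transferases above belong to a larger system that oxidises, conjugates and exports drugs, bile acids and steroids. Of 49 listed oxidation genes (cytochromes P450, carboxylesterases, aldehyde and aldo-keto enzymes), 48 passed the filter on low counts, and 42 of them averaged over 5 CPM under AL. Their log2 difference was above 0 in 43 and below 0 in 5, with a median of 0.80, while 51.8% of all tested genes were above 0 and 48.2% below, with a median of 0.02. No oxidation gene passed the adjusted threshold, 23 had an unadjusted p under 0.05 and a higher level, and 23 were higher without overlap. Of all tested genes, 5.57% had such a p and a higher level, and 7.41% were higher without overlap. Cyp2c66, of the cytochrome P450 2C family, was at 15.8, 9.0 and 3.45 CPM under AL and 45.6, 44.3 and 46.0 under CR, so that the CR animals were nearly alike and the AL animals were not. Ces2a, a carboxylesterase, was at 126 ± 51 CPM under AL and 477 ± 59 under CR (1.93, SE 0.39), Cyp2j6 at 80.1 ± 6.6 and 162 ± 33 (1.02, SE 0.20), and Akr1c19 at 29.3 ± 1.5 and 114 ± 66 (1.97, SE 0.39).

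Of 43 conjugation genes, 42 were tested, 37 were above 0 and 5 below, and the median was 0.52. The called gene Papss2 belongs to this list. At an unadjusted p under 0.05, 19 members were higher, against 5.57% of all tested genes. Without overlap, 19 were higher, against 7.41% of all tested genes. Among them Gstm4 was at 16.6 ± 5.1 CPM under AL and 46.3 ± 3.9 under CR (1.48, SE 0.26), Mgst1, a membrane-bound glutathione transferase, at 131 ± 11 and 288 ± 61 (1.14, SE 0.20), and Ugt2b5, which attaches glucuronic acid, at 7.03 ± 3.9 and 62.7 ± 17 (3.15, SE 0.60). Of 23 export and uptake genes, 21 were tested, 19 were above 0 and 2 below, and the median was 0.82. Higher without overlap were 6 members, against 7.41% of all tested genes. They include Abcc3, at 117 ± 26 and 264 ± 22 CPM (1.18, SE 0.23), Abcc4, at 11.4 ± 0.30 and 23.1 ± 5.0 (1.02, SE 0.22), and the cholesterol exporter Abca1, at 4.22 ± 3.2 and 41.1 ± 14 (3.30, SE 0.62). Over the 3 lists together, 99 of 111 tested members were above 0, and 73 (65.8%) were higher in all 3 isolations, which held for 18.1% of all tested genes. Genes of the cytochrome, glutathione transferase and glucuronosyl families have close copies, between which shared reads may be divided unevenly.

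Enterocyte markers were higher along with these genes in isolations 2 and 3 but hardly in isolation 1. All 38 listed enterocyte genes were above 0, with a median of 0.65, and 9 were higher without overlap, against 7.41% of all tested genes. Within the isolations, however, their median difference was 0.07 in isolation 1, 1.07 in isolation 2 and 1.91 in isolation 3. Their summed level was 38390, 12690 and 11680 TPM in AL replicates 1 to 3 and 35840, 25340 and 28340 TPM in CR replicates 1 to 3, so AL replicate 1 was as rich in enterocyte RNA as its CR partner. In isolation 1, with 1 animal against 1, the oxidation list had a median difference of 0.75 and the conjugation list of 0.72. In isolation 2 these medians were 0.78 and 0.73. In isolation 3 the oxidation median was 1.61 and the conjugation median 0.82. The export list followed the enterocyte order, with 0.36, 0.98 and 1.35. The 3 called genes differed by 2.69 (Tmprss15, itself on the enterocyte list), 1.26 (Papss2) and 3.76 (Mt2) in isolation 1. The part of enterocyte RNA in any of these differences was not tested.

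Single libraries weighed on these medians. Without AL replicate 1 the median was 1.55 for enterocyte genes, 1.34 for oxidation, 0.86 for conjugation and 1.25 for export, and without AL replicate 3 it was 0.28, 0.66, 0.50 and 0.50 in the same order. The enterocyte genes with the smallest p after Tmprss15 were digestive enzymes and carriers that were also higher in isolation 1. Sucrase-isomaltase, Sis, was at 186, 104 and 82.4 CPM under AL and 579, 289 and 288 under CR (1.63, SE 0.35), and maltase-glucoamylase, Mgam, at 111, 89.9 and 92.5 and 277, 158 and 255 (1.24, SE 0.22). The fructose carrier Slc2a5 differed by 2.37 (SE 0.54) and apolipoprotein B, Apob, by 1.91 (SE 0.42). None of these 4 overlapped between the diets, and none passed the adjusted threshold (adjusted p from 0.162 to 0.206).

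**Figure D2:**
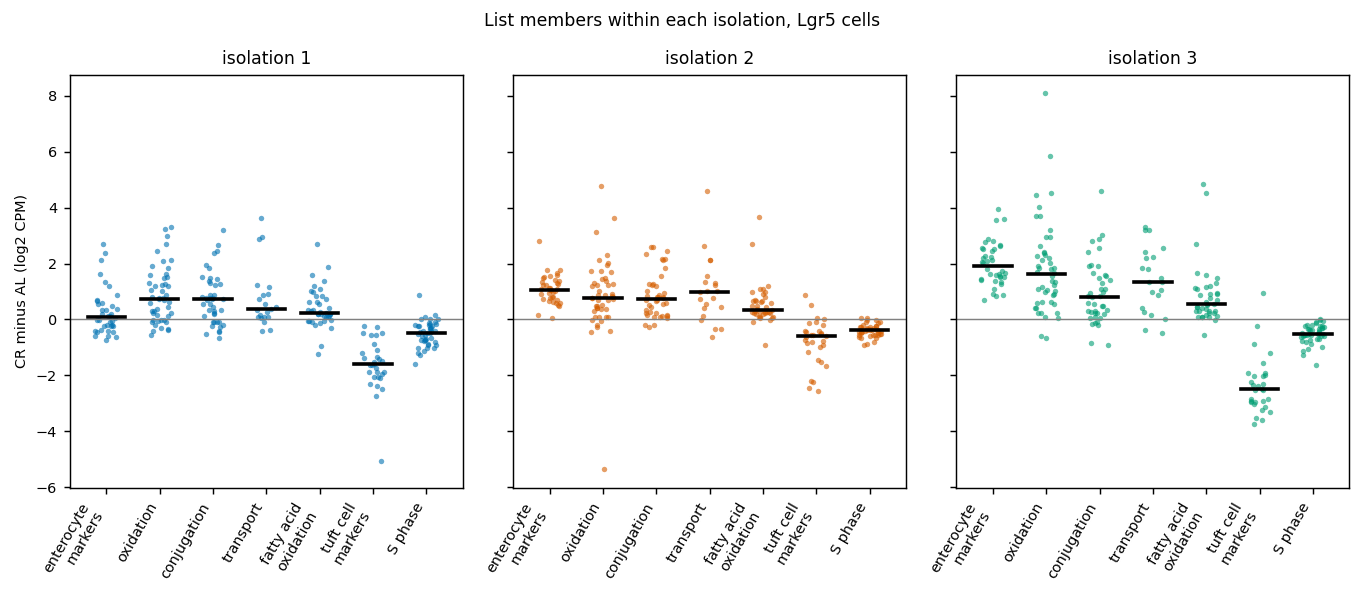
Each point is 1 tested gene of a list, placed by the difference of CR minus AL in log2 CPM within 1 isolation (1 animal against 1), and bars mark list medians. Enterocyte markers centre on 0.07 in isolation 1 and on 1.91 in isolation 3, whereas conjugation genes centre between 0.72 and 0.82 in all 3.

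Genes that burn fatty acids leaned the same way. Of 40 listed, 39 were tested, 36 were above 0 and 3 below, with a median of 0.41. Higher without overlap were 19, against 7.41% of all tested genes. The isolation medians were 0.24, 0.35 and 0.55, and the list median was 0.18 when log2 TPM was compared, a scale that puts the median over all tested genes between -0.16 and -0.11. Acadl, the mitochondrial long-chain acyl-CoA dehydrogenase, was at 130, 108 and 103 CPM under AL and 264, 229 and 312 under CR (1.23, SE 0.22). Of the peroxisomal members, Acaa1b, a thiolase, was at 15.7 ± 13 and 98.3 ± 8.6 CPM (2.64, SE 0.53), Ehhadh, the bifunctional enzyme, at 111 ± 19 and 184 ± 19 (0.72, SE 0.16) and Pex11a, which promotes peroxisome division, at 31.5 ± 8.9 and 61.0 ± 2.6 (0.95, SE 0.21). The 3 AL libraries differed most for Acaa1b, from 4.23 to 29.1 CPM. Among ketone body genes, Acat1, the mitochondrial acetoacetyl-CoA thiolase, differed by -0.60 (SE 0.18) and Bdh1, which interconverts the ketone bodies, by -0.43 (SE 0.15). Of the 27 lipid absorption genes, 8 of them also on the enterocyte list, all were above 0, with a median of 0.66 and isolation medians of 0.05, 1.08 and 1.67 that follow the enterocyte list.

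Tuft cell genes differed furthest in the downward direction. All 30 listed were tested and all were below 0, with a median of -1.82. Lower without overlap were 23, against 7.49% of all tested genes. None passed the adjusted threshold and 24 had an unadjusted p under 0.05, where 4.21% of all tested genes were lower at such a p. Dclk1, the kinase used to mark tuft cells, was at 31.1, 22.8 and 47.4 CPM under AL and 11.7, 4.75 and 9.24 under CR (-1.98, SE 0.43, adjusted p = 0.189). Trpm5, the cation channel of their taste-like signalling, was at 99.7, 69.8 and 129 and 27.4, 36.7 and 24.6 (-1.75, SE 0.38), and Hpgds, which makes prostaglandin D, at 5.92, 5.58 and 12.3 and 2.33, 0.996 and 0.880 (-2.50, SE 0.47). For these 3 genes each CR library lay below each AL library, which was a condition of the choice for Trpm5 and Hpgds. AL replicate 3 was the highest for each gene. The transcription factors Gfi1b and Hmx2 were lower by -2.22 (SE 0.50) and -2.73 (SE 0.58). The list summed to 496, 276 and 1011 TPM in AL replicates 1 to 3 and 158, 171 and 113 TPM in CR replicates 1 to 3, and the isolation medians were -1.60, -0.60 and -2.50. Leaving out AL replicate 3 gave a median of -1.53.

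Genes of the other secretory lineages lay on both sides of 0. Enteroendocrine genes were split 14 above and 14 below 0 (median -0.02), yet single hormones differed widely. Gcg, the precursor of glucagon-like peptides, was at 75.0, 110 and 50.2 CPM under AL and 11.9, 8.63 and 4.00 under CR (-3.27, SE 0.59, adjusted p = 0.162). Neurog3, the factor that commits progenitors to the endocrine fate, was at 16.1, 9.60 and 5.53 CPM under AL and 1.48, 2.89 and 1.84 under CR (-2.34, SE 0.41, adjusted p = 0.162). Both were lower in each isolation and without overlap, which was a condition of their choice among the leading lower genes. Nts, neurotensin, went the other way in 2 isolations, with 0.0714, 0.208 and 0 CPM under AL and 0.130, 11.5 and 13.1 under CR. Ghrl, ghrelin, was at 77.7 CPM in AL replicate 1 and between 0.699 and 6.67 in the other 5 libraries. The enteroendocrine median was -1.32 in isolation 1, 0.17 in isolation 2 and 0.67 in isolation 3. Paneth cell genes were split 11 above and 9 below (median 0.07, or -0.29 without AL replicate 3), and goblet cell genes 9 and 9 (median -0.03). Among Paneth products the defensin Defa20 was at 191, 27.1 and 19.6 CPM under AL and 601, 1099 and 530 under CR (3.23, SE 0.82), and the pentraxin Mptx1 at 0.821, 8.47 and 10.0 under AL and 0.182, 0.564 and 0.737 under CR (-3.67, SE 0.80). Defensin copies are near-identical, so the value of 1 of them is uncertain.

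**Figure D3:**
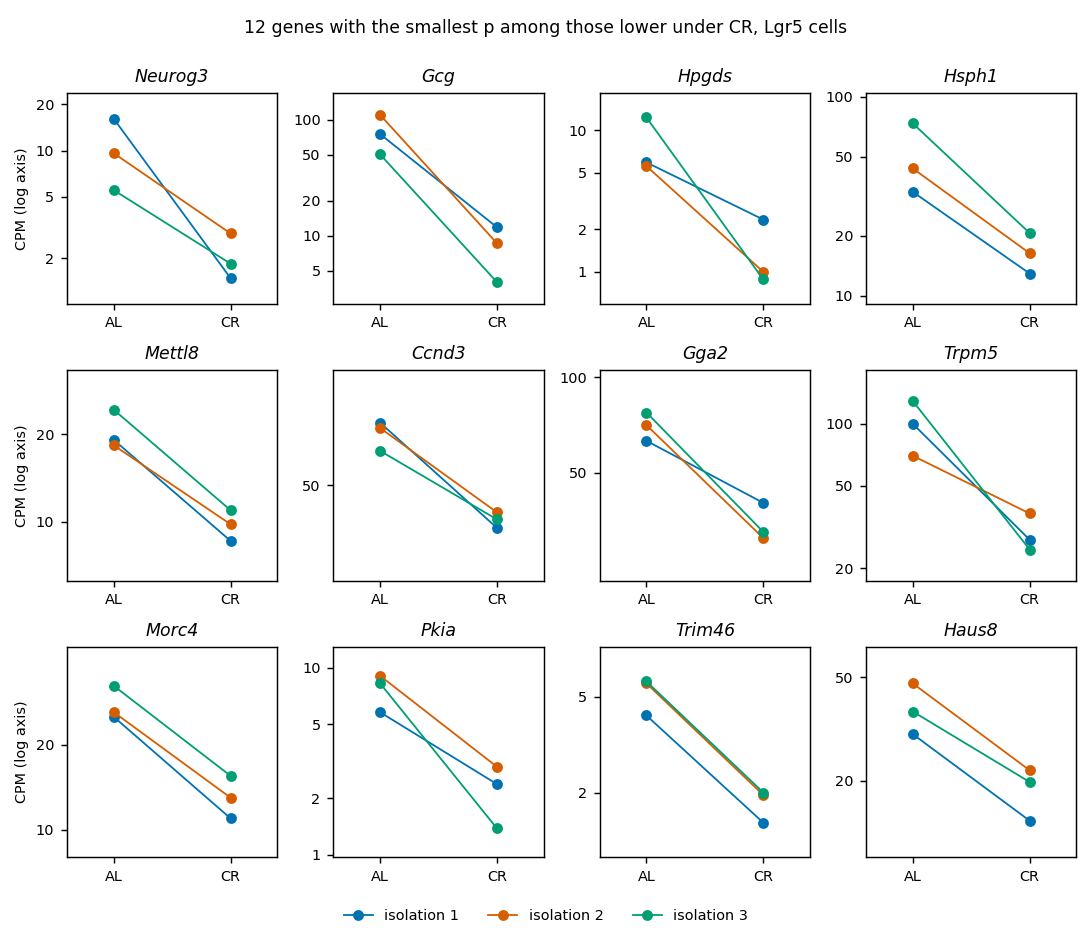
CPM (log axis) of the 12 genes with the smallest p among those lower under CR, in the Lgr5 libraries. Each line joins the AL and CR animal of 1 isolation, with the CR end below the AL end in each panel, and Gcg shows the largest fitted difference (-3.27 on the log2 scale).

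Further leading lower genes were Hsph1, a heat shock protein, at 50.1 ± 21 CPM under AL and 16.6 ± 3.9 under CR (-1.59, SE 0.31), and Ccnd3, the cell cycle activator cyclin D3, at 66.6 ± 5.4 and 41.3 ± 1.8 (-0.69, SE 0.15). Mettl8, Gga2, Morc4, Pkia, Trim46 and Haus8 completed the 12, with log2 differences from -1.79 (Pkia) to -1.02 (Gga2). All 12 adjusted p-values lay between 0.162 and 0.189.

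Genes of DNA replication were lower by small amounts that recurred in the isolations. All 44 listed S phase genes were tested and all were below 0, with a median of -0.42, and 36 were lower in all 3 isolations, a pattern found in 17.3% of all tested genes. None passed the adjusted threshold, 17 had an unadjusted p under 0.05, and 11 did not overlap. Of all tested genes, 4.21% were lower at such a p and 7.49% were lower without overlap. Pold1, the catalytic subunit of DNA polymerase delta, was at 184, 223 and 184 CPM under AL and 84.9, 128 and 93.1 under CR (-0.95, SE 0.21, adjusted p = 0.189). Cdc6, which loads the replicative helicase at origins, was at 29.6, 42.4 and 30.1 CPM under AL and 9.73, 23.2 and 13.8 under CR (-1.13, SE 0.35). Neither overlapped between the diets. Cdt1, its partner in loading, differed by -0.60 (SE 0.21), Gins2, of the active helicase, by -0.72 (SE 0.25) and Rfc4, of the clamp loader, by -0.63 (SE 0.22). The isolation medians of the list were -0.48, -0.38 and -0.50.

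Mitotic genes were mixed. Of 36 listed, 26 were above 0 and 10 below, with a median of 0.08, and 1 was higher and 1 lower in all isolations. The isolation medians were 0.29, -0.44 and 0.40, and the median ran from -0.07 without CR replicate 3 to 0.28 without AL replicate 2. Mki67, a protein of cycling cells, was at 5.92, 33.9 and 17.2 CPM under AL and 52.8, 26.0 and 24.0 under CR, so the groups overlapped (0.84, SE 0.75).

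Cholesterol synthesis was lower in most members. Of 26 tested genes, 22 were below 0 and 4 above, with a median of -0.36 (-0.57 on the log2 scale of TPM + 0.1). Lower without overlap were 10, against 7.49% of all tested genes. Cyp51, the lanosterol demethylase, was at 105, 71.7 and 81.4 CPM under AL and 42.2, 47.5 and 32.5 under CR (-1.08, SE 0.24, adjusted p = 0.189). Acat2, which makes acetoacetyl-CoA in the cytosol, was at 110 ± 14 and 65.9 ± 7.3 CPM (-0.74, SE 0.18), and Idi1, Hmgcs1 and Dhcr7, at early and late steps, differed by -0.82 (SE 0.25), -0.41 (SE 0.15) and -0.65 (SE 0.24). These 5 genes were lower without overlap. The 16 fatty acid synthesis genes tested were split 8 and 8, and the desaturase isoforms went opposite ways. Scd2 was at 131, 115 and 87.5 CPM under AL and 42.6, 38.5 and 14.2 under CR (-1.81, SE 0.45), whereas Scd1, far scarcer, was at 1.96, 1.76 and 0.163 CPM under AL and 14.3, 3.35 and 3.36 under CR (2.42, SE 0.87). Me1, which supplies NADPH, was at 21.7 ± 8.5 and 57.2 ± 0.56 CPM (1.4, SE 0.44).

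**Figure D4:**
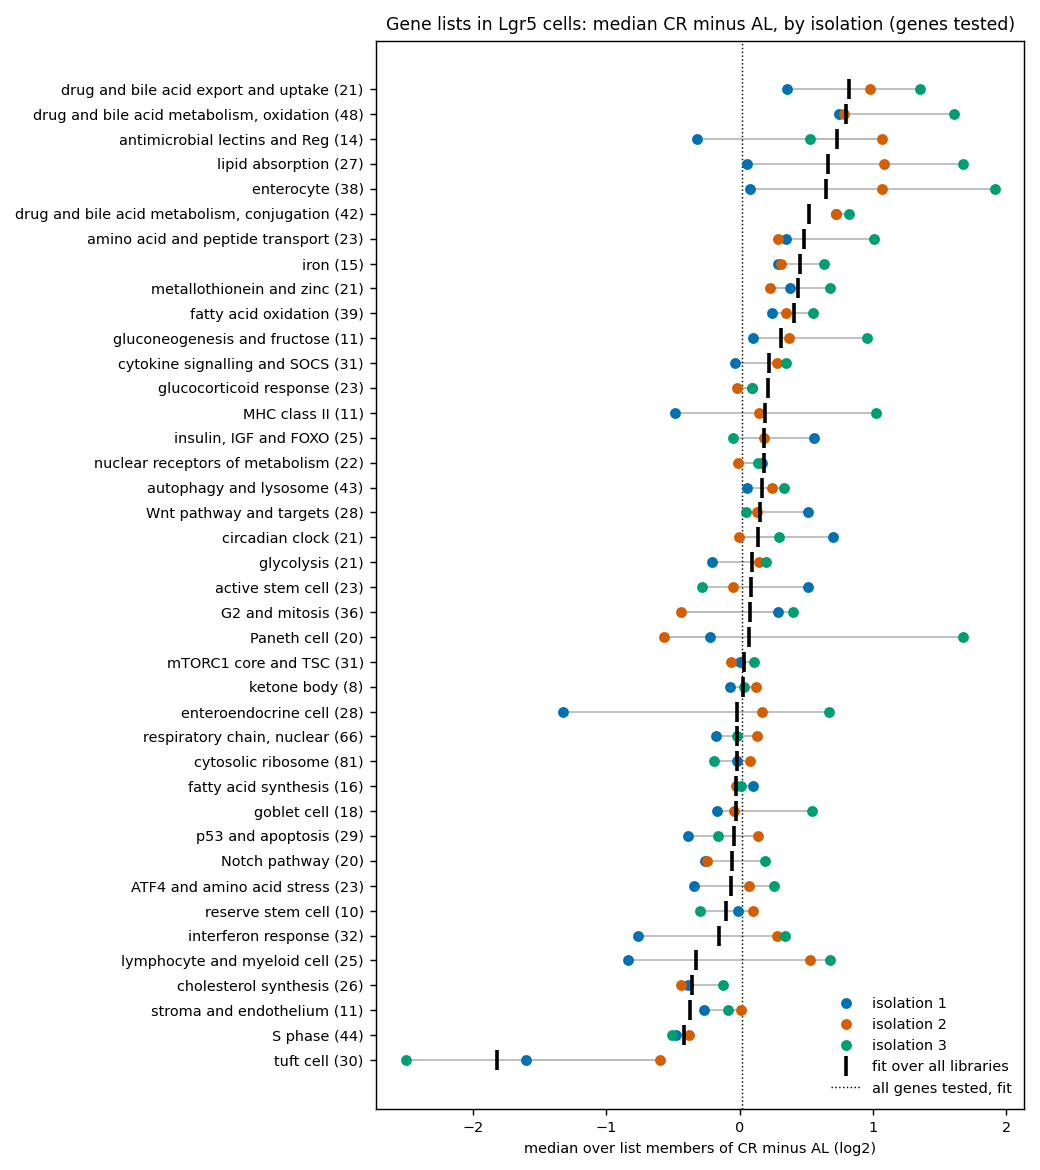
Median difference of CR minus AL (log2) for each gene list, within each isolation (points) and in the fit over all libraries (black bars), with the number of genes tested in parentheses. The 3 points of the S phase list lie between -0.50 and -0.38, while those of the Paneth list run from -0.57 to 1.68.

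Genes of stem cell identity lay on both sides of 0. Of the 23 active stem cell genes, 13 were above 0 and 10 below, with a median of 0.09 that was 0.38 without AL replicate 3 and -0.12 without AL replicate 1. Lgr5 itself was at 75.0, 136 and 255 CPM under AL and 238, 149 and 270 under CR (0.50, SE 0.44), and Olfm4 differed by 0.25 (SE 0.30), both with overlap. Ascl2 was at 142, 123 and 224 CPM under AL and 76.5, 97.8 and 102 under CR, lower without overlap (-0.82, SE 0.32, adjusted p = 0.454). Notch pathway genes were split 10 and 10 (median -0.06). Nrarp, a Notch target and feedback inhibitor, was at 47.9, 62.6 and 59.5 CPM under AL and 33.4, 44.5 and 29.2 under CR (-0.67, SE 0.18), and the receptor modifier Lfng differed by -0.63 (SE 0.24). The target Hes1 was at 105, 105 and 202 CPM under AL and 91.8, 98.1 and 88.7 under CR (-0.56, SE 0.25), with differences of -0.19, -0.10 and -1.18 in isolations 1, 2 and 3, so AL replicate 3 sets most of its value. Ncstn, a subunit of the gamma-secretase that releases the active receptor, was at 272, 235 and 240 CPM under AL and 352, 326 and 346 under CR, higher without overlap (0.45, SE 0.16, adjusted p = 0.405). Of the Wnt genes, 21 were above and 7 below 0 (median 0.15, or -0.01 on the log2 scale of TPM + 1). The reserve stem cell gene Hopx was at 127 ± 9.2 CPM under AL and 150 ± 4.4 under CR (0.25, SE 0.16).

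The nutrient kinase complex mTORC1, the subject of the series title in reserve stem cells, had transcripts on both sides of 0. Of 31 genes of the complex and its regulators, 17 were above 0 and 14 below, with a median of 0.03, and none passed the adjusted threshold. Mtor was at 35.5, 52.8 and 42.7 CPM under AL and 59.7, 50.7 and 72 under CR, overlapping (0.48, SE 0.19, adjusted p = 0.465). Rptor, which recruits substrates to the complex, differed by -0.13 (SE 0.16), Tsc2, its upstream inhibitor, by 0.15 (SE 0.16; -0.04 on the TPM scale), and the substrate kinase Rps6kb1 by 0.58 (SE 0.26). Transcript levels do not measure the activity of a kinase complex. Genes of cytosolic ribosomes were split 32 above and 49 below 0 (median -0.02) and nuclear genes of the respiratory chain 29 and 37 (median -0.02). Autophagy and lysosome genes were above 0 in 33 of 43 (median 0.17), and the median was -0.02 on the log2 scale of TPM + 0.1, where that of all genes was -0.16.

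Metal and nutrient carriers leaned upward. Of 21 tested genes of metallothionein and zinc handling, 19 were above 0 and 2 below, with a median of 0.44 (0.21 on the log2 scale of TPM + 1). Higher without overlap were 7, among them Mt1 and Mt2, against 7.41% of all tested genes. The zinc carriers Slc30a2, at 76.4, 49.5 and 45.8 CPM under AL and 121, 89.0 and 112 under CR (0.91, SE 0.25), and Slc39a14 (0.71, SE 0.23) were also higher without overlap. Of 15 iron genes 13 were above 0 (median 0.45). Slc40a1, ferroportin, the exporter of iron into blood, was at 6.57, 18.8 and 15.0 CPM under AL and 9.91, 101 and 158 under CR, so its difference (2.74, SE 0.79) came from isolations 2 and 3. Of 23 amino acid and peptide carriers, 21 were above 0 and 2 below, with a median of 0.48. Higher without overlap were 5, against 7.41% of all tested genes. The glutamate carrier Slc1a1 was at 57.8 ± 8.9 CPM under AL and 109 ± 18 under CR (0.92, SE 0.19), and Slc6a6, a taurine carrier, differed by 0.68 (SE 0.20).

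Cytokine and antimicrobial genes were above 0 in most members, with libraries that disagreed. Of 31 cytokine signalling genes 20 were above 0 (median 0.22), and besides Socs3 they include the kinase Jak2, at 48.0, 37.8 and 56.2 CPM under AL and 115, 62.0 and 79.6 under CR (0.85, SE 0.25), and the interleukin-22 receptor subunit Il22ra1, at 12.7, 6.53 and 7.11 and 15.8, 13.9 and 15.2 (0.77, SE 0.28). Of 14 antimicrobial lectin and Reg genes 12 were above 0, with a median of 0.73 that was 0.10 without CR replicate 2. In isolation 1, however, 5 were higher and 9 lower, with a median of -0.32. The medians of isolations 2 and 3 were 1.07 and 0.53. Reg3g, a bactericidal lectin, was at 1936, 946 and 278 CPM under AL and 2397, 5639 and 2324 under CR. Its difference within an isolation was 0.31 in isolation 1, 2.57 in isolation 2 and 3.06 in isolation 3, the same order of isolation 1 against the others as the enterocyte list.

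Clock genes stood apart singly. Of 21 tested, 13 were above 0 and 8 below (median 0.14). Nr1d1, the repressor REV-ERB alpha, was at 41.3, 18.0 and 12.9 CPM under AL and 166, 80.1 and 118 under CR (2.34, SE 0.48, adjusted p = 0.188), and the clock output factor Dbp was at 0.999, 0.417 and 1.18 and 24.0, 3.75 and 12.5 (3.98, SE 0.99). Both were higher in each isolation without overlap. Per1, a core clock repressor, differed by -1.37 (SE 0.49). The hour at which cells were collected and the feeding times were not given in the sources used here, so diet and time of day cannot be told apart in these genes.

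The same contrast in Hopx cells, from other animals and isolations, was used to ask which differences were larger in Lgr5 cells. The test of the difference between the diet effects called 1 gene of 15839 (0.00631%), the predicted gene Gm10698, and none of the genes described above. With the isolation as a block it called 0, with 764 genes at an unadjusted p under 0.05 in edgeR. Tmprss15 differed by 0.46 (SE 0.36) in Hopx cells, against 3.02 in Lgr5 cells, a difference between the effects of 2.55 (SE 0.47, unadjusted p = 3.0e-04, adjusted p = 0.9999). For Papss2 the Hopx difference was 0.42 (SE 0.24) and for Mt2 1.11 (SE 0.39), and the diet effects differed by 1.28 (SE 0.31) and 1.71 (SE 0.50), both with an adjusted p of 0.9999. Abcc2 differed by 1.71 (SE 0.47) and Abcb1a by 1.71 (SE 0.54) in Hopx cells, and their diet effects differed by 0.88 (SE 0.59) and 1.42 (SE 0.68), with an adjusted p of 0.9999 for each. The list medians in Hopx cells were 0.91 for oxidation, 0.21 for conjugation and 0.95 for enterocyte genes, but -0.07 for S phase and -0.14 for tuft cell genes. Dclk1 measured -0.07 (SE 0.51) and Trpm5 0.17 (SE 0.45) in Hopx cells, and the difference between diet effects was -1.91 and -1.92, with adjusted p-values of 0.9999. In isolation 4 the Hopx animals of a pair also differed in Y-linked transcripts, chosen after their values were seen. Eif2s3y was at 14.5 TPM under AL and 0.125 under CR, and Ddx3y at 3.61 and 0.0246. Uty was at 3.21 and 0.263 and Kdm5d at 1.16 and 0.245. In isolation 5 Eif2s3y was at 23.4 TPM under AL and 22.4 under CR. In the pair of isolation 4 diet and a possible difference of sex cannot be told apart. The Hopx diet effects and list medians above include that pair. The 2 lines differ in reporter, isolation and number of animals, which cannot be told apart in this comparison.

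**Figure D5:**
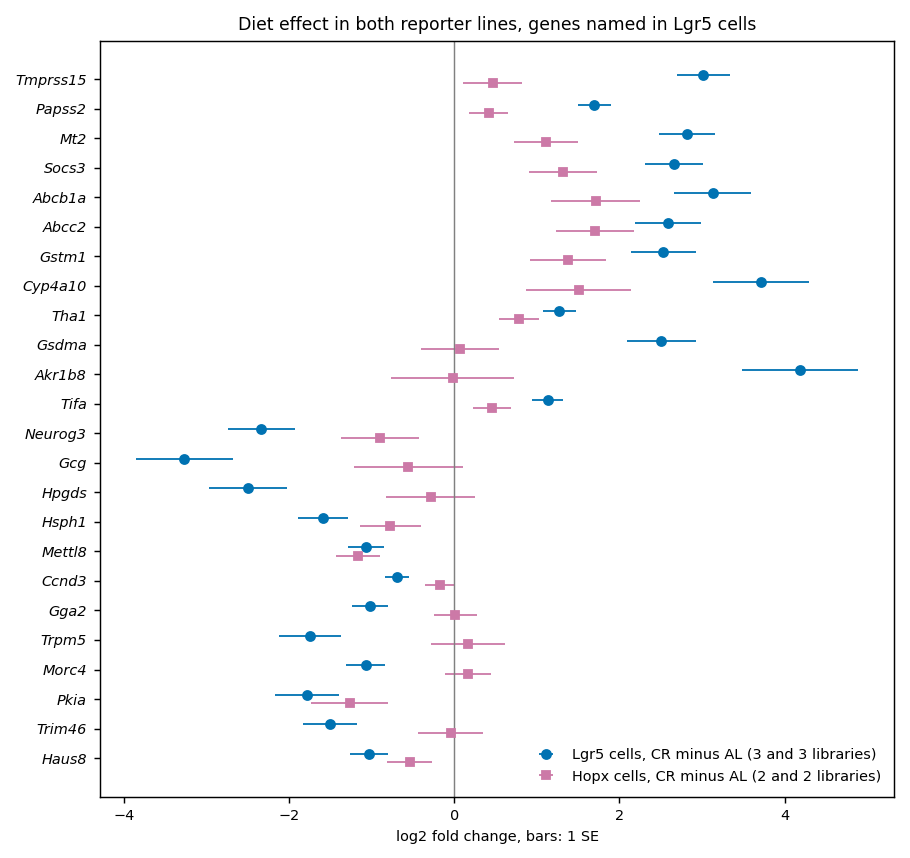
Log2 fold change of CR over AL with 1 SE for the 12 leading higher and 12 leading lower genes of Lgr5 cells, in Lgr5 cells (circles, 3 and 3 libraries) and Hopx cells (squares, 2 and 2). Tmprss15 stands at 3.02 in Lgr5 and 0.46 in Hopx cells, and no gene drawn had an adjusted p under 0.05 for the difference between its effects.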

How the data were processed

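RNA of sorted cells was amplified with SMART-Seq v4, made into libraries with Nextera XT and sequenced on a NextSeq instrument, per the labels' protocols. These kits keep neither strand nor molecular identifiers, so amplified copies count as reads, and genes that overlap on opposite strands cannot be separated. The authors deposited estimated counts and TPM per gene symbol for all 10 libraries. The submitters' processing notes name kallisto, edgeR and GRCh38, a human build, although the symbols are those of mouse genes; the annotation is not given in the sources used here. Date-like names on 27 rows were kept in the totals and not named.

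The deposited estimated counts were rounded, filtered with filterByExpr (minimum count 10), scaled by TMM and fitted with edgeR 4.0.16 (R 4.3.3), as 4 group means over all 10 libraries so that small groups share 1 estimate of spread (common biological coefficient of variation 0.389). Quasi-likelihood tests were two-sided, with Benjamini-Hochberg adjustment over 15839 genes at 0.05. Differences within an isolation are log2 CPM with a prior count of 2. The deposited TPM values gave levels per length and, through limma 3.58.1 on log2(TPM + 1) and log2(TPM + 0.1), an alternative. DESeq2 1.42.0, other filters and scalings, the isolation block and leaving out each library were the remaining alternatives. On simulated data with 200 of 15839 genes changed, the test of CR against AL in Lgr5 cells made 6 false calls. It called 12 of 50 genes changed 2-fold, 44 of 50 changed 4-fold and 49 of 50 changed 8-fold. The changed genes had at least 5 CPM, and the simulated noise held no differences between isolations or in cell composition. The counts therefore need not hold for the animals. Akr1b8, for example, with a log2 difference of 4.19, had an adjusted p of 0.162 by edgeR's quasi-likelihood test.

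The labels give the isolation number, shared by 1 AL and 1 CR animal, as the source of pairing. The correlation of deviations from the group means was 0.0759, 0.165 and 0.0195 for the libraries of isolations 1, 2 and 3 and -0.207 to 0.101 for other AL and CR pairs. The genes, the 40 gene lists and the rule for named genes were chosen with earlier results of these data known. The rule took the called genes, the 12 higher and 12 lower genes with the smallest p (at least 5 CPM, no overlap, established symbol), up to 5 members with the smallest p of each described list, a fixed set that includes the stem cell and mTORC1 genes, and the 5 genes of highest TPM. Sequences come from RefSeq windows on GRCm38.p6, matched by symbol. Results for some genes are not reported here.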

Additional observations from a re-analysis of the deposited data

Results flagged for a closer look

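Gm10698, a predicted gene, is the single gene whose diet effect differed between Lgr5 and Hopx cells by the edgeR test of that difference (11.5 on the log2 scale, adjusted p = 0.00186). With the isolation as a block the same edgeR test called 0 genes (764 at an unadjusted p under 0.05), so the call does not hold there. In Lgr5 cells it was at 10.3 ± 2.9 CPM under AL and 12.3 ± 1.8 under CR (SD, n = 3 each), a log2 difference of 0.24 (SE 0.28). In Hopx cells it was at 6.53 and 6.93 CPM in the AL libraries and at 0 in both CR libraries, so the fitted size depends on the prior count and is no bound. The difference in Lgr5 cells was thus smaller than its SE, and most of the value comes from the Hopx libraries. Reads of a predicted gene can be shared with near-identical copies; their part in the result was not tested.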

How the results depend on the processing

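For CR against AL in Lgr5 cells, 3 genes passed. The isolation as a replicate block gave 0 calls (1830 genes at an unadjusted p under 0.05), also with the 6 Lgr5 libraries alone (1663), which without the block gave 4, of which 1 was among the 3. DESeq2 called 360 genes (201 higher and 159 lower), DESeq2 size factors in edgeR 1, no filter on low counts 83 (66 higher and 17 lower), log2(TPM + 1) 19 (17 higher) and log2(TPM + 0.1) 23 (20 higher). Leaving out 1 library gave 0 to 109 calls: 109 (107 higher) on dropping Lgr5 AL replicate 1, 0 on dropping each of the other 5 Lgr5 libraries (914 to 1826 genes at an unadjusted p under 0.05), and 7, 9, 1 and 1 without Hopx AL replicates 1 and 2 and CR replicates 1 and 2. The cause of these differences was not tested. The 12 leading higher and 12 leading lower genes kept their direction and an unadjusted p under 0.05 in each of these settings. They were chosen by small p and lack of overlap in these same libraries, so the choice largely fixed that outcome. The difference between diet effects gave 1 call, 0 with the replicate block, 40 with DESeq2 (19 positive and 21 negative), 3 without a filter, 3 and 2 on the log2(TPM + 1) and log2(TPM + 0.1) scales, and 1 to 2 with 1 library left out. Of the genes given a log2 difference in the report only Tsc2 changed sign in these settings, to -0.0423 on both TPM scales. The median of all genes was 0.02 by edgeR and -0.11 and -0.16 on the TPM scales, to which list medians there are to be read. In the simulated data genes changed 2-fold were mostly missed, and no counting interval covers the amplification of a low input.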

Other observations

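Transcripts of the Y chromosome were near 0 in both Lgr5 animals of isolation 3 and present in the other 4. Eif2s3y, of the Y chromosome and chosen after its values were seen, was at 12.9 and 8.91 TPM in AL replicates 1 and 2 and at 30.5 and 17.3 in CR replicates 1 and 2, but at 0.0450 in AL replicate 3 and 0.0766 in CR replicate 3. Where present, it was higher in the CR animal of the pair, and Ddx3y, chosen likewise, was at 1.63 TPM in AL replicate 1 and 11.7 in CR replicate 1. In isolation 2 the gap was smaller, with Ddx3y at 2.20 TPM under AL and 3.93 under CR. Kdm5d, also of the Y chromosome, was at 3.87 and 4.18 TPM there. Isolation 3 also held the largest differences of the enterocyte list (median 1.91) and the tuft cell list (median -2.50).

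Genes outside the report's groups gave these values. Nuclear receptors of lipid and bile acid metabolism were above 0 in 16 of 22 (median 0.18), among them Nr1h4, the bile acid receptor FXR, at 29.6, 27.2 and 21.3 CPM under AL and 41.3, 45.1 and 50.4 under CR (0.81, SE 0.18), Hnf4g at 1.09 (SE 0.28) and Pparg at 1.03 (SE 0.30). Klf15, a factor of the fasting response, was at 14 ± 0.93 CPM under AL and 25.6 ± 5.1 under CR (0.87, SE 0.26), without overlap. None had an adjusted p under 0.05 by edgeR's quasi-likelihood test.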
